A study of Homo sapiens with 6 samples.

Results

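The matrix metalloproteinase (MMP), ADAMTS and TIMP genes were examined in RNF25-knockdown SW839 cells. The members were the rows of the deposited table whose symbol was MMP followed by a number and at most 1 letter, ADAMTS followed by a number, or TIMP1 to TIMP4, which gave 41 genes of the 30267 listed, with 20 MMP, 17 ADAMTS and 4 TIMP genes. SW839 is an established renal cell carcinoma (RCC) line. Total RNA depleted of ribosomal RNA was sequenced in 6 libraries, 3 of cells carrying the RNF25 hairpin (shRNF25) and 3 of cells carrying the pLKO vector (shControl). According to the study's methods, both groups were made with lentiviral vectors and selected with puromycin, and because the protocol text names the shRNF25 plasmid even for the controls, the groups rest on titles, genotype labels and library names. The names of the knockdown libraries form a single series and point to a single hairpin, whereas the names of the control libraries do not form a series. Nothing in the labels says whether the libraries of a group came from separate cultures, so the p-values measure the spread between these libraries only.

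MMPs are zinc endopeptidases that are made as inactive precursors and cut collagens, gelatin, other matrix proteins and many cell-surface proteins. ADAMTS proteases are secreted relatives that trim proteoglycans, process procollagens or cut single targets such as von Willebrand factor, and TIMPs are small secreted proteins that block the active site of MMPs and, for some TIMPs, of ADAMTS enzymes. In tumors these genes are best known for the remodeling of matrix around invading cells, and several MMP genes are textbook targets of the AP-1 and NF-κB transcription factors.

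The start regions of 3 genes that were lower in shRNF25 are shown with those of 2 genes of the MMP cluster on chromosome 11, to set promoters of unlike composition side by side. Each line gives the 150 bases upstream of the RefSeq start (GRCh38.p14), 5′ to 3′ on the strand of the gene, with matches to the AP-1 motif TGAGTCA and to the TATA motif TATAAA in capitals.
MMP14, chr14:22836435-22836584, plus strand: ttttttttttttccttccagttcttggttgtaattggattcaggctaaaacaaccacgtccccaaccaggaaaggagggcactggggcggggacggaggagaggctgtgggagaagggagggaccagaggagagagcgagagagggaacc
ADAMTS14, chr10:70672356-70672505, plus strand: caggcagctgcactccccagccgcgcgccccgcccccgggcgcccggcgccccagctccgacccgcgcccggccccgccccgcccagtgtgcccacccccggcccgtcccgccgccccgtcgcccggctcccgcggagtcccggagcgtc
ADAMTS6, chr5:65481921-65482070, minus strand: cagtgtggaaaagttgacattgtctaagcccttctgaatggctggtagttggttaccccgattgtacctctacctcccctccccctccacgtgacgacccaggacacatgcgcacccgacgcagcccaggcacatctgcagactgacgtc
MMP10, chr11:102780629-102780778, minus strand: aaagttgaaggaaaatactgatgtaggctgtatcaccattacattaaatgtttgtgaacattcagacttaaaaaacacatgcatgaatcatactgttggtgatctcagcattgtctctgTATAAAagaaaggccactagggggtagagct
MMP7, chr11:102530748-102530897, minus strand: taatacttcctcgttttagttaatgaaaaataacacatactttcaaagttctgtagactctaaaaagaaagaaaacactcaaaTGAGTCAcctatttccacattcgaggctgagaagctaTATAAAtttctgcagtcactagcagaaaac

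RefSeq promoters were found for 24 of the 41 genes, with 25 start regions. The window of 250 bases upstream of each start was searched on both strands. The AP-1 motif TGAGTCA was present in 1 of the 25 windows (4%), that of MMP7, against 4.20% of all 35116 windows. TATAAA was present in 6 of the 25 windows (24.0%), against 10.7% of all. These were the windows of MMP21, MMP7, MMP20, MMP8, MMP10 and ADAMTS10. The match began 30 and 31 bases upstream in MMP7 and MMP10, and 72 to 110 bases upstream in the others. Only MMP10 of these genes passed the filter on low values given below, and it was called neither lower nor higher. The NF-κB consensus GGGRNWYYCC (R for A or G, N for any base, W for A or T, Y for C or T) was present in 0 of the 25, against 5.21% of all. With only 25 windows these shares cannot be told apart, and no difference was tested. The printed stretches of ADAMTS14, ADAMTS6 and MMP14 hold no match to AP-1 or TATA, and their GC content was 86.7%, 57.3% and 54.0%, against 36.7% in MMP10 and 32.7% in MMP7. MMP9, MMP28, MMP3, ADAMTS1, MMP1, MMP13 and TIMP2 were among the 17 genes without an entry, so their start regions were not searched.

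The libraries held 18647460 to 19943154 reads on genes, and the values below are normalized counts, in which each library was divided by a size factor. The limma test was run on log2(normalized count + 1) for genes that reached a normalized count of 10 in 3 or more libraries, and genes past both an adjusted p of 0.05 and a fold change of 1.5 were called lower or higher. Levels in bulk RNA cannot separate fewer cells of a kind from less RNA in each cell. RNF25, the target, was at 694, 534 and 536 in shControl and at 214, 246 and 265 in shRNF25, with a log2 fold change of -1.27 ± 0.15 (SE, limma adjusted p = 0.000585). Of the 9 renal epithelium and RCC markers, 8 were in the table, with PAX8 at 127 ± 11.6 in shControl and 94.0 ± 16.5 in shRNF25, and CA9, a marker of clear cell RCC, at only 23.6 ± 23.6 against 4.94 ± 3.18 (SD, n = 3). VIM, the only called gene of this list, was at 355 ± 133 against 832 ± 43.4 (SD, n = 3, limma adjusted p = 0.00805). The summed level of the 8 markers, carried by KRT8, KRT18 and KRT19, was 71129 to 90155 in shControl and 80715 to 84461 in shRNF25. The 7 fibroblast markers summed to 1108 to 1293 against 876 to 1024 and came almost entirely from COL1A1, while 2 of them, DCN included, had at most 3 reads in every library. The 5 leukocyte markers in the table summed to 34.5 to 43.1 against 50.5 to 72.9. Of the 2 that were tested, ITGAM was higher, at 21.1 ± 3.02 against 39.6 ± 10.3 (SD, n = 3, limma adjusted p = 0.0465). PTPRC did not pass, at 11.4 ± 1.83 against 9.52 ± 5.41 (SD, n = 3). The 5 endothelial markers summed to 490.4 to 688 against 492 to 647. Among the endothelial markers CDH5 was lower, at 125 ± 65.7 against 5.89 ± 2.34, and KDR was higher, at 24.5 ± 6.48 against 84.5 ± 3.60 (SD, n = 3). The part of these markers in the results was not tested.

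Of the 41 genes, 29 were tested, of which MMP3 and MMP28 reached the minimum in 3 libraries only through the shRNF25 group, where they are high. Among them 7 were lower in shRNF25 (24.1%, against 7.10% of all 16554 genes tested) and 5 were higher (17.2%, against 8.65% of all genes tested). The lower genes were MMP9, ADAMTS14, ADAMTS6, MMP14, TIMP2, MMP15 and ADAMTS16, and the higher genes were MMP28, MMP3, ADAMTS1, MMP1 and ADAMTS17. The other 17 did not pass, and 0 of them passed the adjusted p threshold with too small a fold change. The median log2 fold change of the 29 genes was -0.17, against -0.01 over all genes tested. All 3 libraries of shRNF25 lay below all 3 of shControl for 12 of the 29 genes (41.4%, against 21.8% of all genes tested), and above them for 7 (24.1%, against 20.7%). Each gene without overlap had p = 0.1 when its 6 values were permuted exactly (two-sided), which is the smallest p that 3 libraries against 3 can give.

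**Figure D1:**
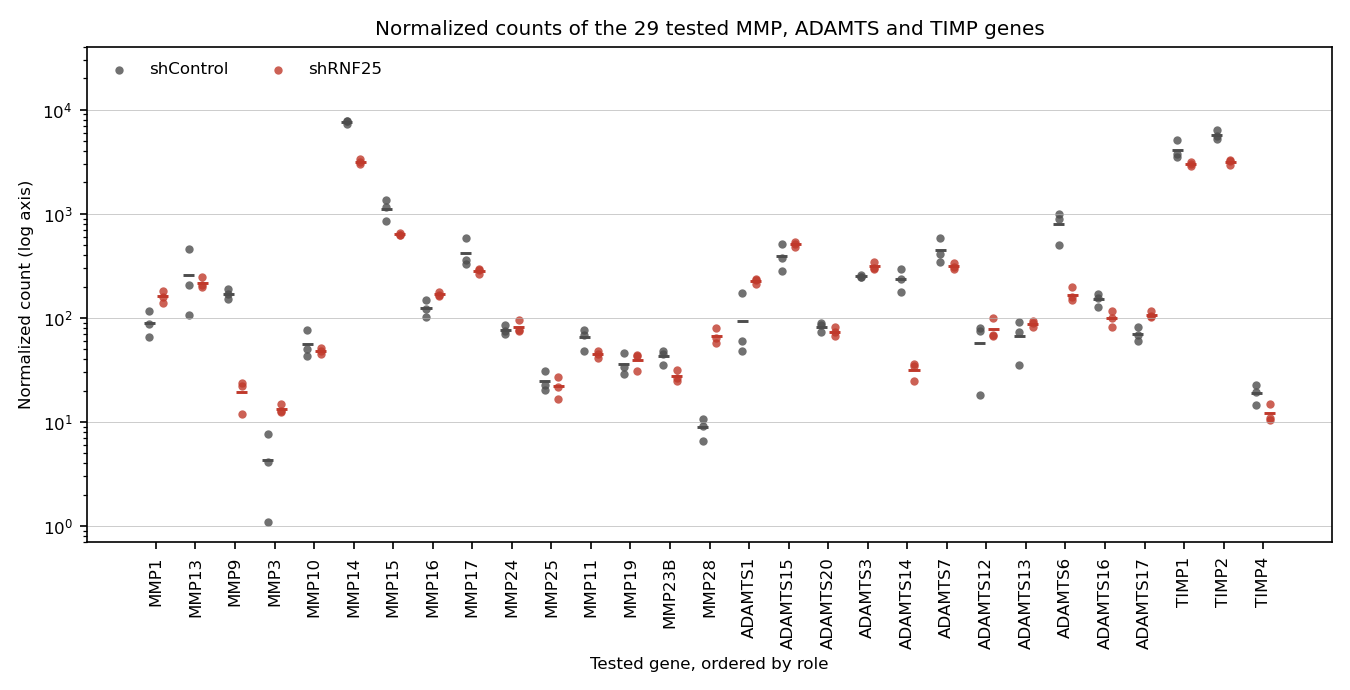
Normalized counts (log axis) of the 29 tested genes, ordered by role, with a point for each library and a line at each group mean (3 shControl and 3 shRNF25 libraries). MMP14, TIMP1 and TIMP2 lie far above the other genes in both groups, and MMP9, ADAMTS14, ADAMTS6 and MMP28 show the widest gaps between the groups.

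**Figure D2:**
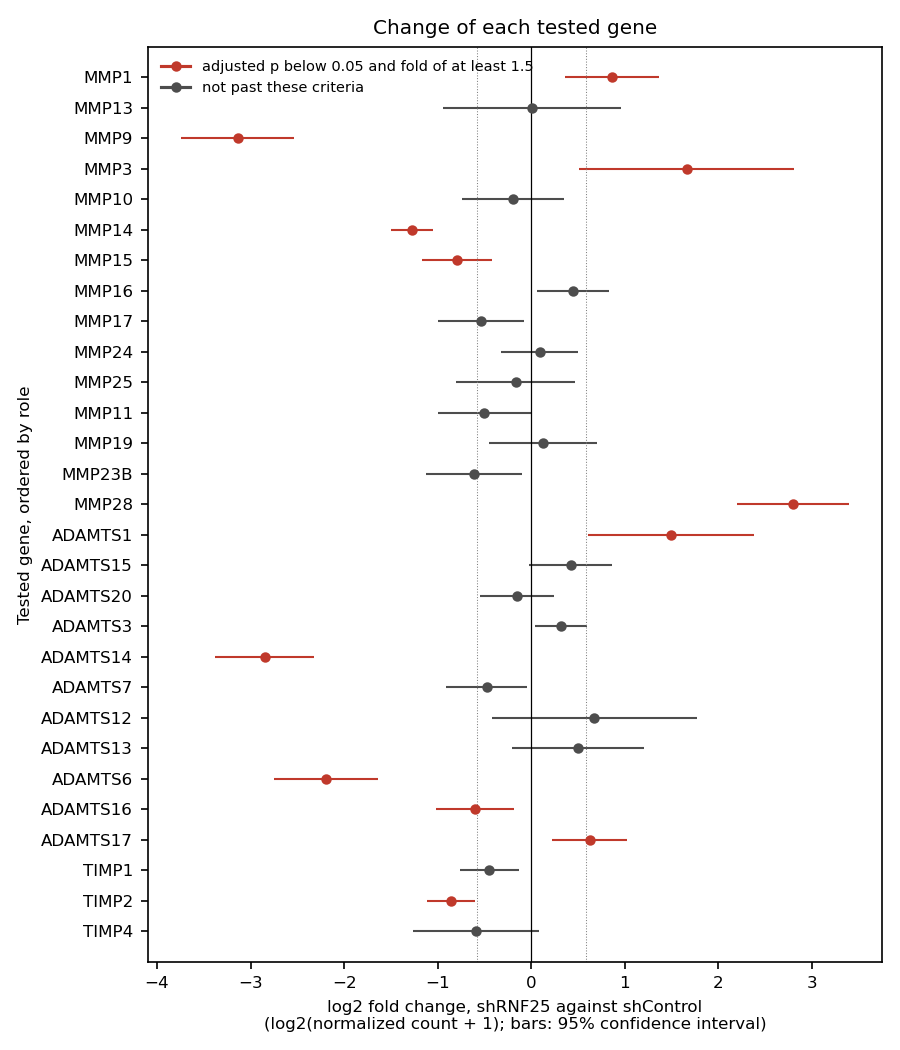
The log2 fold change of each tested gene, shRNF25 against shControl, with its 95% confidence interval from limma. Red marks the 12 genes past the criteria, from MMP9 at -3.14 to MMP28 at 2.79, and dotted lines mark a fold change of 1.5.

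Genes were then compared with each other per kilobase of exon. In shControl TIMP1 stood highest at 2682 ± 538 normalized counts per kilobase (SD, n = 3), followed by MMP14 at 1709 ± 59.8, TIMP2 at 1018 ± 113 and MMP15 at 253 ± 58.5. In shRNF25 the order of these 4 was the same, at 1942 ± 77.1, 706 ± 39.5, 560.1 ± 32.2 and 143 ± 3.39 (SD, n = 3). No library of either group had overlapping levels between neighbors among these 4, whereas the genes next in order, MMP17 and ADAMTS6 in shControl and ADAMTS15 and MMP1 in shRNF25, overlapped with each other. Before the scaling, MMP14 and TIMP2 overlapped in shRNF25, at 3153 ± 176 and 3155 ± 181 (SD, n = 3). Their order there rests on the exon lengths of 4464 and 5633 bases, which join the exons of all annotated transcripts. ADAMTS6 moved from rank 6 of 41 to rank 14, MMP9 from 8 to 24 and ADAMTS14 from 12 to 28, whereas MMP28 moved from 29 to 13, ADAMTS1 from 18 to 11 and MMP1 from 11 to 6.

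The summed level of the 20 MMP genes per kilobase was 2234, 2334 and 2617 in shControl and 1272, 1227 and 1159 in shRNF25. MMP14 alone made up 73.5%, 74.0% and 67.2% of that sum in shControl and 58.9%, 56.8% and 58.0% in shRNF25. Without MMP14 the sum was 592, 608 and 859 in shControl and 522, 531 and 487 in shRNF25. The summed level of the TIMP genes was 3442, 3402 and 4291 in shControl and 2533, 2596 and 2399 in shRNF25, and that of the 17 ADAMTS genes was 347, 389 and 397 in shControl and 309, 286 and 296 in shRNF25. The ratio of the MMP sum to the TIMP sum was 0.649, 0.686 and 0.610 in shControl and 0.502, 0.473 and 0.483 in shRNF25. The groups did not overlap in these sums or in the ratio, which are given as descriptions without a test.

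**Figure D3:**
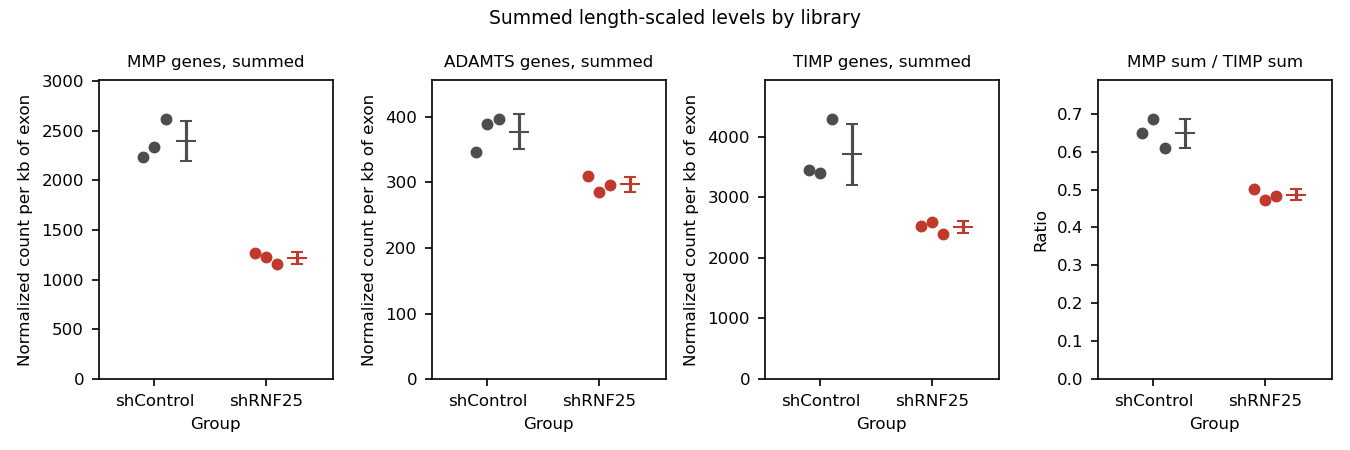
Summed normalized counts per kilobase of exon for the MMP, ADAMTS and TIMP genes and the ratio of the MMP to the TIMP sum, with a point for each library and the mean with its SD beside the points (n = 3). In each panel all 3 shRNF25 libraries lie below the 3 shControl libraries, and the MMP to TIMP ratio goes from 0.648 ± 0.0381 to 0.486 ± 0.0149.

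Among the membrane-type MMPs, which stay anchored at the cell surface, 2 of 6 were lower (33.3%, against 7.10% of all genes tested), 0 were higher (against 8.65%) and 4 did not pass. MMP14 (MT1-MMP), a cell-surface collagenase that also activates the precursor of MMP2, spans bases 22836557 to 22849027 of chromosome 14 (GRCh38, GENCODE 29). It was at 7330.2, 7706 and 7846 in shControl and at 3347, 3110.4 and 3002 in shRNF25. The control libraries lay close together and every knockdown library was at less than the lowest control library, with a log2 fold change of -1.28 ± 0.10 (SE, limma adjusted p = 6.5e-05) and a mean of 41.3% of control. MMP15 (MT2-MMP), a related transmembrane protease, was at 845, 1159 and 1357 in shControl and at 632, 650.1 and 621 in shRNF25, a log2 fold change of -0.79 ± 0.17 (SE, limma adjusted p = 0.00959). Its control libraries spread far more than its knockdown libraries, and without shRNF25 replicate 1 or 3 its adjusted p was 0.0527 or 0.0508.
MMP17 (MT4-MMP), which is held by a lipid anchor, was at 332 to 581 in shControl and 262 to 296 in shRNF25, and its log2 fold change was -0.54 ± 0.20 (SE, limma adjusted p = 0.0905). MMP16 (MT3-MMP) was at 125 ± 23.9 in shControl and 169 ± 7.81 in shRNF25 (SD, n = 3), with a log2 fold change of 0.45 (95% confidence interval 0.06 to 0.83, adjusted p = 0.0932). Neither of these genes overlapped between the groups. MMP24, known from neural tissue, and MMP25, known from leukocytes, did overlap, at 77.1 ± 8.38 against 82.2 ± 11.7 (SD, n = 3) and at 20.5 to 31.0 against 16.6 to 27.3. Both share exonic sequence with a gene on the other strand, MMP24OS and MMP25-AS1, and the sources do not give whether counting used strand. MMP25-AS1 itself was at 322, 135 and 188 in shControl and at 109, 95.1 and 92.5 in shRNF25 (log2 fold change -1.02, adjusted p = 0.0294).

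Gelatinases cut denatured collagen and type IV collagen of basement membranes. MMP9 (gelatinase B), on chromosome 20 from 46008908 to 46016561, was at 189, 171 and 153 in shControl and at 11.8, 22.2 and 23.8 in shRNF25, resting on 142 to 171 reads against 13 to 25 reads. It was the largest fall among the tested members, with a log2 fold change of -3.14 ± 0.27 (SE, limma adjusted p = 0.000122) and a mean of 11.3% of control. The gene overlaps SLC12A5-AS1 on the other strand over 430 exonic bases, and that gene was at 9.5 to 19.5 in all 6 libraries. MMP2, the other gelatinase, was not analysed here.

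The collagenases MMP1 and MMP13 cut fibrillar collagen. MMP1, on chromosome 11 from 102789920 to 102798160, was at 117, 65.7 and 87.4 in shControl and at 160.4, 183 and 139 in shRNF25. The gene shares 150 exonic bases with the pseudogene WTAPP1 on the other strand, which was at 0 to 3.6. All knockdown libraries lay above all controls, with a log2 fold change of 0.86 ± 0.22 (SE, limma adjusted p = 0.0246), but without shControl replicate 2 the adjusted p was 0.0652 and without any single shRNF25 library it was 0.0591 to 0.116. MMP13 was at 206, 107 and 459 in shControl and at 250, 209 and 197 in shRNF25, so that the control libraries enclosed all knockdown libraries. Its log2 fold change of 0.01 had a 95% confidence interval of -0.94 to 0.96 (adjusted p = 0.992), which reaches nearly 2-fold in either direction. MMP8, the neutrophil collagenase, had at most 3 reads in every library.

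Stromelysins cut proteoglycans and fibronectin and activate the precursors of other MMPs. MMP3 (stromelysin-1) was at 1.1, 4.1 and 7.6 in shControl and at 12.8, 14.8 and 12.4 in shRNF25, which are 1, 4 and 7 reads against 14, 16 and 13 reads. It passed the filter only through the 3 shRNF25 libraries and therefore had to differ to be tested. The log2 fold change was 1.66 ± 0.51 (SE, limma adjusted p = 0.0465), DESeq2 gave an adjusted p of 0.0636 and quantile normalization one of 0.0875, so this call was close to the threshold. Without shControl replicate 2 the adjusted p was 0.0847, and without any of the shRNF25 libraries the gene could not be tested. MMP10 (stromelysin-2) overlapped between the groups, at 43.1 to 76.6 in shControl and 44.8 to 51.0 in shRNF25, with a log2 fold change of -0.20 (95% confidence interval -0.74 to 0.34). The matrilysin MMP7 was at 1.8 to 6.6 and was not tested.

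These collagenases and stromelysins lie in a cluster on chromosome 11 that holds, in order, MMP7, MMP20, MMP8, MMP10, MMP1, MMP3, MMP12 and MMP13 among the genes of the table. Of the 8 genes, 4 were tested, 2 were higher (50%, against 8.65% of all genes tested, with MMP3 tested only because it was high in shRNF25) and 2 did not pass. MMP10 and MMP13 lie on either side of MMP1 and MMP3 in this order, and both overlapped between the groups, as the values above show. The other 4 genes, MMP7, MMP20, MMP8 and MMP12, were below 10 in every library, with MMP12, the macrophage elastase, at 0 reads in all 3 shRNF25 libraries and at 0, 1 and 2 reads in shControl. Between MMP3 and MMP10, 2.88% and 3.36% of the 50-base words of their transcripts are shared with the other gene.

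**Figure D4:**
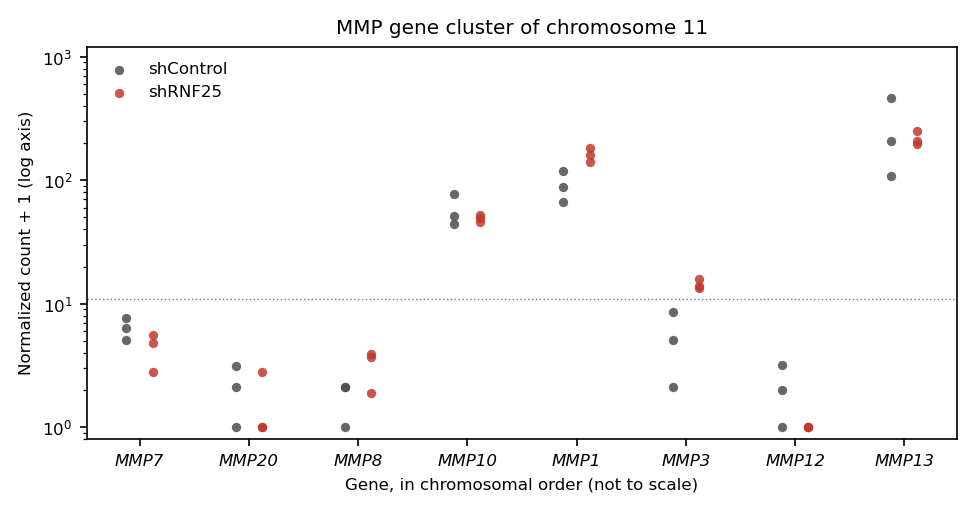
Normalized count + 1 (log axis) in each library for the 8 MMP genes of the chromosome 11 cluster, in chromosomal order and not to scale, with the dotted line at the filter of a normalized count of 10. MMP1 and MMP3 lie higher in shRNF25 without overlap, while MMP10 and MMP13 overlap between the groups.

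Of the other MMPs, 4 were tested. MMP28 (epilysin), which is known from epithelia and wound edges, lies on chromosome 17 from 35756249 to 35795707. It was at 6.6, 9.2 and 10.8 in shControl and at 79.3, 64.6 and 57.2 in shRNF25, resting on 6, 9 and 10 reads against 87, 70 and 60 reads. It was the largest rise among the tested members, with a log2 fold change of 2.79 ± 0.27 (SE, limma adjusted p = 0.000194) and a fold change of 7.54 between the means. Only 1 shControl library reached a normalized count of 10, so MMP28 was tested because it was high in shRNF25 and had to differ, and without any filter its adjusted p was 0.000297. The gene lies inside TAF15, which is on the other strand, without shared exonic bases. MMP11 (stromelysin-3), which furin activates inside the cell, was at 64.9 ± 14.6 against 44.8 ± 3.67 (SD, n = 3). MMP23B, a small MMP that is released from the membrane, was at 43.0 ± 7.18 against 27.6 ± 3.48 (SD, n = 3). Neither overlapped between the groups and neither passed, at adjusted p = 0.138 and 0.0865 from limma. Of the 50-base words of MMP23B transcripts, 38.0% are shared with its near copy MMP23A, so its counts are uncertain. MMP19 was at 36.3 ± 9.09 against 39.4 ± 7.33 (SD, n = 3). MMP11 and MMP19 each share exonic bases with a more abundant gene on the other strand, and the strand setting of the counting is not given. For MMP11 these were 218 bases of CHCHD10, which was at 447 to 565.5 in shControl and at 330 to 369 in shRNF25. For MMP19 they were 814 bases of TMEM198B, which was at 209 to 296 in shControl and at 255.5 to 275 in shRNF25. MMP20, the enamel MMP, had at most 2 reads in any library, and MMP21 was at 5.4 to 6.6 in shControl and 7.3 to 15.7 in shRNF25.

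Procollagen N-proteinases remove the amino-terminal propeptide of fibrillar procollagens. ADAMTS14, on chromosome 10 from 70672803 to 70762441, was at 177, 295.5 and 236 in shControl and at 24.6, 34.2 and 36.2 in shRNF25. Its groups were far apart, with a log2 fold change of -2.85 ± 0.23 (SE, limma adjusted p = 0.000101) and a mean of 13.4% of control. ADAMTS3, of the same subgroup, was at 249, 259 and 247 in shControl and at 343, 304 and 297 in shRNF25, a log2 fold change of 0.32 (95% confidence interval 0.04 to 0.60, adjusted p = 0.0983). ADAMTS2, the major enzyme of the subgroup in skin, was at 4.4 to 7.6 in shControl and at 6.5 to 12.4 in shRNF25 and was not tested. Of the 2 genes of the subgroup that were tested, 1, ADAMTS14, was lower (50%, against 7.10% of all genes tested) and 0 were higher (against 8.65%). No difference between the 3 genes was tested. The length-scaled level of ADAMTS14 was 44.8 ± 11.3 against 6.01 ± 1.18 while that of ADAMTS3 was 35.1 ± 0.862 against 43.9 ± 3.41 (SD, n = 3).

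ADAMTS6, a relative of the fibrillin-binding ADAMTS10, lies on chromosome 5 from 65148736 to 65481920. It was at 995, 898 and 497 in shControl and at 197, 149 and 157 in shRNF25. shControl replicate 3 was lower than the other controls, yet every knockdown library was lower still, with a log2 fold change of -2.19 ± 0.25 (SE, limma adjusted p = 0.000474). ADAMTS6 made up 33.5%, 26.9% and 14.6% of the summed length-scaled ADAMTS level in shControl and 7.43%, 6.07% and 6.20% in shRNF25. ADAMTS10 itself was at 0 to 4.3, and ADAMTS18 at 0 to 4.4. ADAMTS16 was at 154, 128 and 169 in shControl and at 116, 82.2 and 100.1 in shRNF25, a log2 fold change of -0.60 ± 0.18 (SE, limma adjusted p = 0.0469). ADAMTS17, whose loss is known from a short-stature syndrome with eye defects, was at 59.7, 82.1 and 68.0 in shControl and at 104, 115 and 103 in shRNF25, a log2 fold change of 0.62 ± 0.18 (SE, limma adjusted p = 0.0356). Both calls were close to the thresholds. Without shControl replicate 3 or any single shRNF25 library the adjusted p was 0.0773 to 0.200 for ADAMTS16 and 0.0538 to 0.162 for ADAMTS17. The call of ADAMTS16 was also lost with edgeR (0.0587), median-ratio scaling (0.0773), no filter (0.0725) and, on fold change, a pseudocount of 5, and that of ADAMTS17 after quantile normalization (0.0594) and without a filter (0.0618). Without shControl replicate 1 both genes fell short of a fold change of 1.5.

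Among the proteoglycanases, which cut aggrecan and versican, ADAMTS1 was higher. ADAMTS1, on chromosome 21 from 26835747 to 26845409, was at 48.6, 59.5 and 173 in shControl and at 234, 212 and 232 in shRNF25. shControl replicate 3 stood apart from the others but below all knockdown libraries, and the log2 fold change was 1.49 ± 0.39 (SE, limma adjusted p = 0.0262). It was 2.05 without shControl replicate 3, while without shControl replicate 2 the adjusted p was 0.0951 and without any single shRNF25 library 0.0766 to 0.103. ADAMTS15 was at 284 to 509 in shControl and 475 to 532 in shRNF25, with an adjusted p of 0.159, and ADAMTS20 at 82.2 ± 8.24 against 73.6 ± 7.83 (SD, n = 3). The aggrecanases ADAMTS4 and ADAMTS5 had at most 7 reads and 1 read in any library, and ADAMTS8 at most 1.

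ADAMTS7 and ADAMTS12 cut cartilage oligomeric matrix protein (COMP). ADAMTS7 was at 342, 414 and 588 in shControl and at 298, 339 and 305 in shRNF25, a log2 fold change of -0.48 (95% confidence interval -0.91 to -0.05, adjusted p = 0.107). It shares 14.8% of the 50-base words of its transcripts with other loci, chiefly its own pseudogenes, of which ADAMTS7P1 and ADAMTS7P3 were at 0 to 4.8 here. ADAMTS12 was at 79.6, 74.9 and 18.3 in shControl and at 100.2, 68.3 and 67.7 in shRNF25, and shControl replicate 3 set its log2 fold change, which was 0.68 with it and 0.00 without it. ADAMTS13, which cuts von Willebrand factor in plasma, was at 66.7 ± 28.7 against 87.9 ± 6.60 (SD, n = 3).

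Of the 4 inhibitors, 3 were tested and 1 was lower (33.3%, against 7.10% of all genes tested). TIMP2, which blocks most MMPs and also bridges MMP14 to the precursor of MMP2, lies on chromosome 17 from 78852977 to 78925387. It was at 6441, 5220.4 and 5535 in shControl and at 3319, 3185 and 2961 in shRNF25, a log2 fold change of -0.86 ± 0.11 (SE, limma adjusted p = 0.00111) and a mean of 55.0% of control. The length-scaled ratio of MMP14 to TIMP2 was 1.44, 1.86 and 1.79 in shControl and 1.27, 1.23 and 1.28 in shRNF25. TIMP1, which inhibits MMP9 well and MMP14 poorly, was at 3529, 3793 and 5079 in shControl and at 2985, 3114 and 2877 in shRNF25. Its groups did not overlap, but with a log2 fold change of -0.45 (95% confidence interval -0.77 to -0.13) it missed the threshold at an adjusted p of 0.0509 from limma, and over the alternatives this value ran from 0.00552 without shControl replicate 1 to 0.187 without shRNF25 replicate 3, with 0.0294 from DESeq2 and 0.175 after quantile normalization. Its fold change of 1.36 was also under the minimum of 1.5. The length-scaled ratio of MMP9 to TIMP1 was 0.0353, 0.0298 and 0.0199 in shControl and 0.00262, 0.00470 and 0.00546 in shRNF25.
TIMP4 was at 14.4, 22.6 and 19.4 in shControl and at 10.9, 14.8 and 10.5 in shRNF25, with an adjusted p of 0.191. TIMP3, which binds to the matrix and also inhibits ADAMTS enzymes, had at most 3 reads in any library. TIMP1, TIMP3 and TIMP4 lie inside synapsin genes on the other strand. SYN1 had a mean of 2.18 in shControl and 3.09 in shRNF25, so its transcripts were near absent beside those of TIMP1. SYN2, which shares 170 exonic bases with TIMP4, was at 24.0 ± 11.1 in shControl and 16.2 ± 3.39 in shRNF25 (SD, n = 3), close to the level of TIMP4 itself.

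The control libraries carried most of the spread. The median coefficient of variation over the 29 tested members was 23.1% in shControl and 9.65% in shRNF25, against 18.2% and 6.70% over all genes tested. The limma test fits a common variance per gene to both groups, moderated over all genes tested, so this difference in spread was not modeled. Among the 29, shControl replicate 3 was the highest control library for 15 genes and shControl replicate 1 the lowest for 17. The control library farthest from the control median was replicate 1 for 11 of the 29, replicate 2 for 6 and replicate 3 for 12. Over all genes tested these shares were 52.1%, 21.2% and 26.8%, so replicate 1 stood apart most often in the whole table. With each library left out in turn, the adjusted p of MMP9, MMP14, MMP28, ADAMTS6, ADAMTS14 and TIMP2 stayed below 0.05, with largest values of 0.00182, 0.00148, 0.00346, 0.00507, 0.00111 and 0.0132. The other 6 of the 12 genes past the criteria lost an adjusted p below 0.05 in at least 1 of these fits, which is shown in the plot of fold changes with each library left out.

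**Figure D5:**
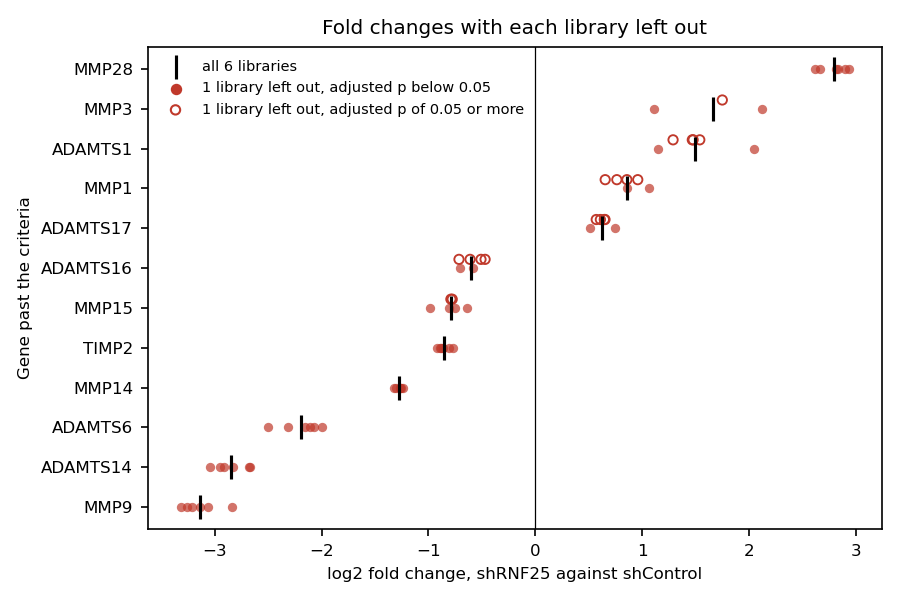
The log2 fold change of the 12 genes past the criteria with all 6 libraries (black bar) and with each library left out in turn (points, open and drawn slightly higher where the adjusted p was 0.05 or more). MMP9, ADAMTS14, ADAMTS6, MMP14, TIMP2 and MMP28 have closed points only, and MMP3 has 3 points because it could not be tested without any of the shRNF25 libraries.

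Other genes of the pericellular proteolysis network were taken from lists made by function. Of the 7 ADAM sheddases tested, which release cell-surface proteins, 3 were lower (42.9%, against 7.10% of all genes tested) and 0 were higher (against 8.65%). ADAM12 went from 293 ± 50.7 to 106 ± 5.84 (SD, n = 3), which is -1.44 on the log2 scale (limma adjusted p = 0.000432), ADAM8 fell by 0.87 and ADAM19 fell by 0.64 on the log2 scale, the last with an adjusted p of up to 0.065 when 1 library was left out. ADAM17, the sheddase of TNF, was at 1127 ± 81.1 against 939 ± 21.8 (adjusted p = 0.110). Among the ADAMTS-like proteins, which resemble ADAMTS but lack the protease domain, and papilin, 1 of 4 tested was higher (25%, against 8.65% of all genes tested), ADAMTSL3, which went from 109.5 ± 6.61 to 332 ± 20.7 (SD, n = 3), which is 1.59 on the log2 scale.
Of 11 tested activators, surface inducers and other inhibitors of matrix proteases, 5 were lower (45.5%, against 7.10% of all genes tested) and 0 were higher (against 8.65%). PLAU, the urokinase that generates plasmin, went from 35318 ± 6922 to 12968 ± 1042 and its receptor PLAUR from 2544 ± 299.9 to 995 ± 43.7 (SD, n = 3), log2 fold changes of -1.43 and -1.35. The secreted protease inhibitor TFPI2 went from 1613 ± 377 to 794 ± 18.2 (SD, n = 3). RECK, a membrane-anchored inhibitor of MMP9, MMP2 and MMP14 that was named after its values were seen, went from 114 ± 22.2 to 67.3 ± 10.2 (SD, n = 3), with an adjusted p of 0.0315, which was 0.081 without shControl replicate 2 and 0.0807 to 0.146 without any single shRNF25 library. FURIN, which activates membrane-type MMPs, was at 2855 ± 486 against 2165 ± 108 (adjusted p = 0.0748), and BSG (EMMPRIN), a surface inducer of MMPs, at 10295 ± 935 against 9067 ± 285 (SD, n = 3).
Of 10 other matrix-degrading enzymes tested, 1 was lower and 1 was higher (10% each, against 7.10% and 8.65% of all genes tested). Both were cysteine cathepsins, CTSS going from 73.0 ± 10.0 to 11.5 ± 0.802 and CTSK, the collagen-cutting cathepsin of osteoclasts, from 58.6 ± 12.7 to 100.04 ± 7.47 (SD, n = 3), with adjusted p-values of 0.000136 and 0.0252. The adjusted p of CTSK was 0.0765 to 0.116 without any single shRNF25 library.
Of 9 tested matrix substrates, 3 were lower (33.3%, against 7.10% of all genes tested) and 2 were higher (22.2%, against 8.65%). Fibronectin (FN1) went from 45480.1 ± 13109 to 8809 ± 546, THBS1, an adhesive glycoprotein that ADAMTS1 cuts, from 58759 ± 5774 to 15396 ± 600.3 and versican (VCAN) from 659 ± 155 to 254 ± 14.8 (SD, n = 3), whereas fibrillin-2 (FBN2) went from 4521 ± 298 to 9522 ± 232 and nidogen-2 (NID2) from 166 ± 25.4 to 284 ± 11.7 (SD, n = 3). Aggrecan (ACAN) and COMP had mean normalized counts below 1 in both groups.
Of 14 transcription factors with known sites in MMP promoters, all tested, 3 were lower (21.4%, against 7.10% of all genes tested) and 2 were higher (14.3%, against 8.65%). RUNX2, ETS1 and FOSL2 fell by 1.31, 0.98 and 0.72 on the log2 scale, and FOS and FOSB had log2 fold changes of 2.99 and 2.51 with control libraries that varied widely (301 ± 228 and 257 ± 236, SD, n = 3). JUN was at 2640.2 ± 340.0 against 2049 ± 168 (adjusted p = 0.0684) and RELA at 3948 ± 1273 against 2836 ± 174 (adjusted p = 0.148).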

How the data were processed

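Groups and replicate numbers were taken from the sample titles, and columns were matched by library name. The authors deposited normalized counts, a signal equal to whole reads divided by 1 size factor per library. Whole reads came back for 100% of values within a tolerance of 0.01 reads. The submitters' processing notes list fastp, HISAT2, HTSeq and GRCh38, and the paper names a stranded kit and DESeq2. The annotation and the strand setting of the counting are not given in the sources used here. These size factors, 0.905 to 1.10, equaled those that the DESeq2 median-ratio method gave on the whole reads. They leave gene length uncorrected. log2(normalized count + 1) was fitted with limma 3.58.1 (trend, R 4.3.3) over 16554 genes and adjusted by the Benjamini-Hochberg method. Alternatives were pseudocounts of 0.5 and 5, no filter, a minimum of 50, quantile and median-ratio scaling, edgeR 4.0.16, DESeq2 1.42.0, the replicate block, a fold change of 2 and each library left out. Scripts were tested on simulated data. Positions, exon lengths and shared 50-base words come from GENCODE 29 (GRCh38), matched by symbol, and promoters from RefSeq (GRCh38.p14). Every member that passed the filter is named, with up to 4 genes past the criteria in each direction from each other list. A gene of these lists is not reported here. The members and lists were chosen with earlier results of these data known.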

Additional observations from a re-analysis of the deposited data

How the results depend on the processing

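Over the 29 tested members and the alternative settings, 374 of 426 values kept their direction and their side of an adjusted p of 0.05, 29 lost it, 10 gained it and 13 changed sign. RNF25 kept both throughout, between -1.34 and -1.15. The count of lower members was 5 to 9 with 1 library left out and 4 at a fold change of at least 2. The count of higher members was 3 without a filter, 3 after quantile normalization, 3 at a fold change of at least 2 and 1 to 6 with 1 library left out. The count of 6 came without shControl replicate 3, that of 2 without shControl replicate 2 and that of 1 without any of the shRNF25 libraries. The cause was not tested. The sign changed only in members that were not called. MMP13 was at -0.00761 after quantile normalization, -0.20 with edgeR, -0.22 with DESeq2 and -0.50 to 0.55 with 1 library left out. MMP24 and MMP19 were at -0.0225 and -0.0689 after quantile normalization. With 1 library left out, MMP24 ranged from -0.0244 to 0.17, MMP19 from -0.0261 to 0.31, MMP10 from -0.37 to 0.0396 and MMP25 from -0.33 to 0.0104. Same-numbered libraries did not deviate together (correlations of -0.06, -0.09 and 0.05), and with the replicate block 7 members were lower and 4 higher, ADAMTS17 no longer passing (adjusted p = 0.0558). At this depth the 12 members that were not tested had normalized counts of at most 15.7, and a batch running along with the groups and the knockdown cannot be told apart.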
